A study of Mus musculus with 4 samples.

Results

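Glucocorticoid-responsive genes and metallothioneins were examined as a group of 10 genes among the 25655 genes of the deposited liver table. The genes were taken by name: the glucocorticoid receptor gene Nr3c1, the glucocorticoid-activating enzyme gene Hsd11b1, the responsive genes Fkbp5, Tsc22d3, Sgk1, Zbtb16, Dusp1 and Klf9, and the metallothionein genes Mt1 and Mt2. The group was selected on measured counts, because Fkbp5 was lower in ADAR2 KO livers, so the genotype comparison of the 10 genes is a description and carries no test. All 10 were in the table and all 10 passed the filter on low counts.

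Glucocorticoids such as corticosterone bind the glucocorticoid receptor, which leaves its chaperone complex, enters the nucleus and acts on genes that carry its binding element. In the liver the hormone supports gluconeogenesis and amino acid breakdown, and several of its target genes, Fkbp5 among them, feed back on the receptor. Metallothioneins are small cysteine-rich proteins that bind zinc and copper, and their genes respond to metals, glucocorticoids and inflammatory signals.

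Liver polyA RNA was sequenced from 2 HFD-WT and 2 HFD-KO libraries of male mice on a B6129S background, fed a high-fat diet (HFD) for 12 weeks from 5 weeks of age. HFD-WT stands for ADAR2+/+/GluR-B R/R and HFD-KO for ADAR2-/-/GluR-B R/R, so both genotypes carried the edited GluR-B allele that keeps mice without ADAR2 alive. ADAR2 is an RNA-editing enzyme that converts adenosine to inosine. The mice came from crosses of heterozygous parents, and the study's legend names more mice per group than there are libraries, so a library may stand for several mice, but the number behind each is not given in the sources used here. The p-values below therefore measure only the spread between these libraries, which may be partly technical.

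Total counts per library lay between 24480798 and 28691330, at which 3 counts correspond to between 0.105 and 0.122 CPM, a limit that covers counting error only. CPM values here are read counts scaled per 1e6 reads to a library size adjusted by the TMM method, while levels of different genes are compared in the deposited TPM, which divides by gene length. The targeted gene Adarb1, which encodes ADAR2, had 454 and 545 reads in HFD-WT and 164 and 228 reads in HFD-KO libraries (log2 fold change -1.17, SE 0.20, adjusted p = 0.159 in edgeR's quasi-likelihood test), and counts per gene do not show which exons the KO reads cover. The hepatocyte markers Alb, Apoa1, Ttr, Serpina1c, Cyp2e1, Hnf4a and Trf summed to between 95420 and 96400 CPM in 3 libraries and to 116800 CPM in HFD-KO replicate 2. Alb had 66100 CPM in HFD-KO replicate 2 and between 52680 and 54900 CPM in the others, and Trf 22870 CPM against between 14090 and 16520 CPM. Apoa1, Ttr and Cyp2e1 were instead highest in HFD-KO replicate 1. Lymphocyte markers summed to 107 CPM in HFD-KO replicate 1 and to between 20.98 and 24.76 CPM in the other libraries, so that library stood apart, with 73.9 CPM from the B cell gene Ighm. Erythroid and pancreas markers summed to between 611 and 822 CPM in 3 libraries and to 1155 CPM in HFD-KO replicate 2, with the pancreatic genes Prss2 and Try4 at 0 in all 4 libraries, and cholangiocyte markers to between 50.2 and 90.6 CPM. In bulk liver, fewer cells of a type and less RNA per cell cannot be told apart.

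Hsd11b1 and both metallothioneins were the most abundant genes of the group per length. Hsd11b1 had a mean of 354 TPM over the 4 libraries, Mt1 322 TPM and Mt2 268 TPM, and their ranges overlapped, so their order is not fixed. They were followed by Tsc22d3 with 76.3 TPM and Klf9 with 61.5 TPM, which also overlapped with each other, and then by Dusp1 with 44.4 TPM. Fkbp5 had a mean of 27.5 TPM and ranged from 11.7 to 51.0 TPM, a span that overlapped both Dusp1 above it and Nr3c1 below it. Nr3c1 with 13.6 TPM, Zbtb16 with 13.3 TPM and Sgk1 with 10.1 TPM were the lowest, although Sgk1 still stood above 67.4% of the genes with a count.

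**Figure D1:**
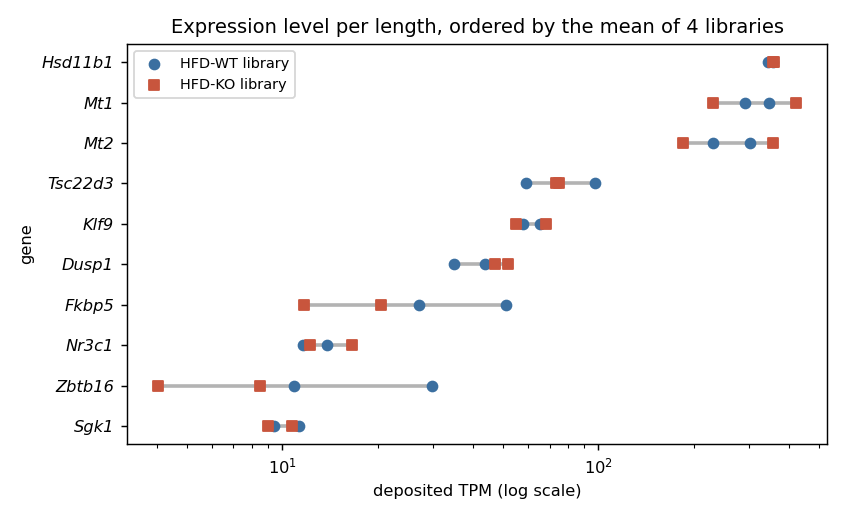
Deposited TPM of the 10 genes on a log axis, with a point for each HFD-WT (blue circles) and HFD-KO (red squares) library and a grey line from the lowest to the highest. Hsd11b1 stayed between 345 and 360 TPM, while Zbtb16 spanned 4.05 to 29.8 TPM.

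Nr3c1 overlapped between genotypes, while Hsd11b1 was slightly higher in both HFD-KO libraries. Nr3c1, on chromosome 18 from 39543598 to 39652474 of the table's annotation, had 53.3 and 43.8 CPM in HFD-WT and 49.4 and 65.0 CPM in HFD-KO livers. The groups overlapped, since the lower HFD-KO value fell between the HFD-WT values, and the fitted difference, HFD-KO minus HFD-WT on the log2 scale, was 0.23 (standard error 0.15, the error given after ± for every log2 fold change below) and fell to 0.02 without HFD-KO replicate 2. Hsd11b1, on chromosome 1 from 192903942 to 192946383, encodes the enzyme that regenerates active corticosterone in hepatocytes. It had 394 and 398 CPM in HFD-WT and 424 and 418 CPM in HFD-KO livers. Both HFD-KO values were above both HFD-WT values, but the difference was small, with a log2 fold change of 0.09 (standard error 0.082). Hsd11b1 also had the smallest spread of the group, with a ratio of 1.08 between its highest and lowest library. Its span overlaps Lamb3 on the opposite strand, which had 443 to 525 reads against 9986 or more for Hsd11b1, and the use of strand in counting is not given in the sources used here.

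Fkbp5 and Zbtb16 were the genes of the group that were lower in HFD-KO livers. Fkbp5, on chromosome 17 from 28618068 to 28736501, encodes FKBP51, a co-chaperone that lowers the receptor's affinity for hormone. Its expression was 88.6 and 164 CPM in HFD-WT and 40.2 and 68.5 CPM in HFD-KO livers, from 2567, 4498, 1057 and 1637 reads. Both HFD-KO values lay under both HFD-WT values, the closest pair being HFD-WT replicate 1 and HFD-KO replicate 2. The means were 126 ± 53 CPM (SD, n = 2) and 54.4 ± 20.1 CPM (SD, n = 2), a 2.32-fold lower level in HFD-KO (log2 fold change -1.22 ± 0.32). The log2 fold change was -0.70 without HFD-WT replicate 2, -0.88 without HFD-KO replicate 1, -1.60 without HFD-WT replicate 1 and -1.65 without HFD-KO replicate 2.

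Zbtb16, on chromosome 9 from 48565597 to 48747522, encodes the zinc finger transcription factor PLZF, a strongly glucocorticoid-induced gene in many cell types. It had 28.8 and 77.1 CPM in HFD-WT and 11.2 and 22.9 CPM in HFD-KO livers, in the same order of libraries as Fkbp5. The groups did not overlap, and the level was 3.10-fold lower in HFD-KO (log2 fold change -1.63 ± 0.47). It was also the most variable gene of the group, with a ratio of 6.85 between its highest and lowest library. Its log2 fold change was -0.75 without HFD-WT replicate 2 and -2.23 without HFD-KO replicate 2. PLZF is also made by some innate lymphocytes. The innate lymphocyte genes Nkg7 and Klrb1c had between 0.42 and 0.87 CPM and between 0.21 and 0.53 CPM over the 4 libraries, and the part of such cells in the Zbtb16 values was not tested.

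**Figure D2:**
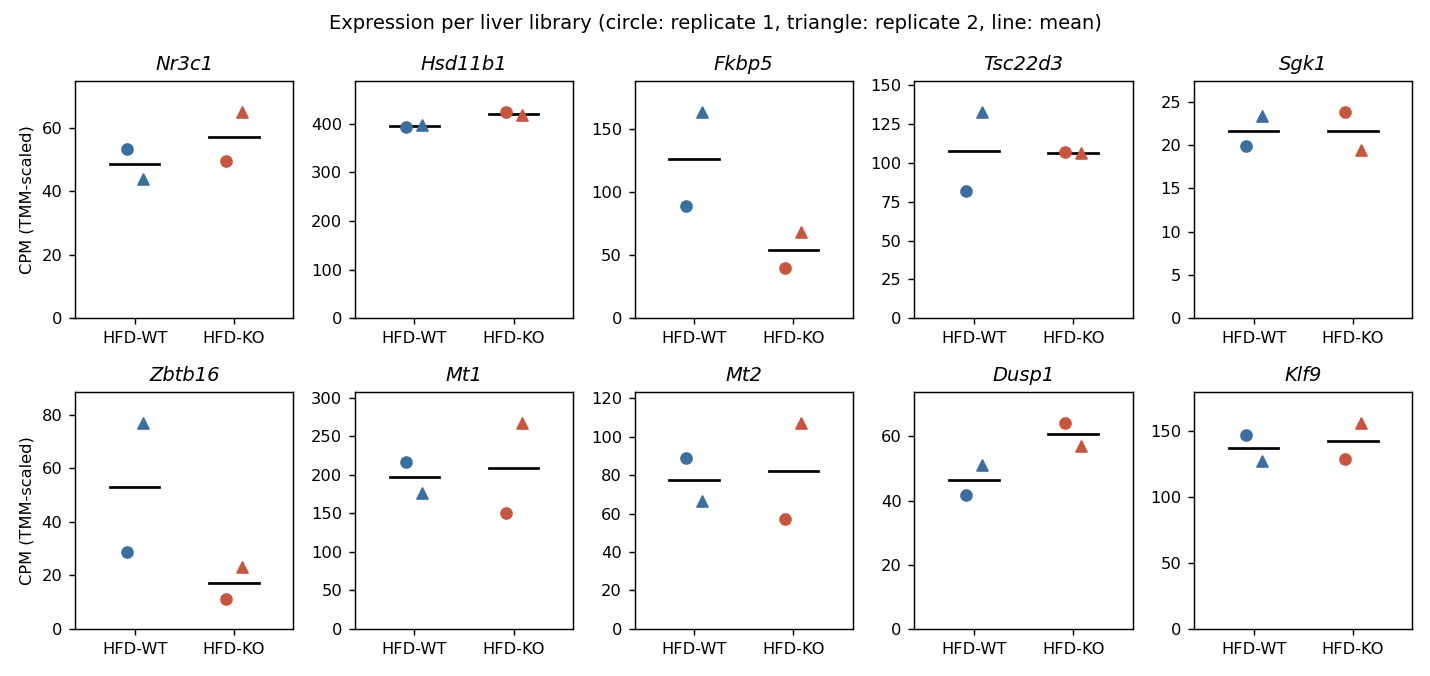
CPM of each gene in every library, with the y axis from 0, circles for replicate 1, triangles for replicate 2 and a line at the group mean. Fkbp5 and Zbtb16 were lower and Dusp1 and Hsd11b1 higher in both HFD-KO libraries, while the other 6 genes overlapped between genotypes.

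Fkbp5 and Zbtb16 also varied strongly between libraries of the same genotype. The log2 difference between replicates of Fkbp5 was 0.88 in HFD-WT and 0.77 in HFD-KO, larger than that of 99.2% and 96.8% of the 11765 genes with a mean of at least 1 CPM. For Zbtb16 the differences were 1.42 and 1.02, larger than 99.9% and 98.4% of those genes, whose medians were 0.11 and 0.14. Replicate 2 was the higher library in both genotypes for both genes. Their ratio within a library, Fkbp5 over Zbtb16 in TPM, ranged from 1.71 to 2.88, a 1.68-fold span. For Fkbp5 over Nr3c1 it ranged from 0.954 to 4.38 (4.59-fold), and for Fkbp5 over Tsc22d3 from 0.159 to 0.522 (3.28-fold). Fkbp5 and Zbtb16 were both lower in HFD-KO, which in itself narrows their ratio. At the other end, the replicates of Hsd11b1 differed by 0.014 and 0.021.

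The other responsive genes did not share the pattern of Fkbp5. Tsc22d3, on chromosome X from 139440277 to 139501408, encodes GILZ, an anti-inflammatory leucine zipper protein that is a standard readout of receptor activity. It had 82.1 and 133 CPM in HFD-WT and 107 and 106 CPM in HFD-KO livers. HFD-WT replicate 2 was the highest library, as for Fkbp5, but both HFD-KO values lay between the HFD-WT values (log2 fold change -0.01 ± 0.20). Its log2 fold change was 0.38 without HFD-WT replicate 2 and -0.32 without HFD-WT replicate 1. Sgk1, on chromosome 10 from 21758083 to 21875802, encodes a kinase that regulates ion channels and transporters. It had 19.9 and 23.4 CPM in HFD-WT and 23.8 and 19.4 CPM in HFD-KO livers, and the group means were nearly equal (log2 fold change -0.0024 ± 0.13). Klf9, on chromosome 19 from 23118590 to 23145498, encodes a Krüppel-like transcription factor induced by glucocorticoids and thyroid hormone. It had 147 and 127 CPM in HFD-WT and 129 and 156 CPM in HFD-KO livers, with overlap (log2 fold change 0.06 ± 0.12).

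Dusp1 went the other way. The gene, on chromosome 17 from 26724564 to 26781102, encodes a phosphatase that inactivates MAP kinases and is both a glucocorticoid target and an immediate early gene. It had 41.6 and 51.0 CPM in HFD-WT and 64.3 and 57.1 CPM in HFD-KO livers, so both HFD-KO libraries were higher (log2 fold change 0.39 ± 0.12). Its span in the table overlaps Ergic1 on the opposite strand, and how reads there were divided is not known. Ergic1 had 2069 and 2318 reads in HFD-WT and 1999 and 1751 reads in HFD-KO libraries. These reads are not scaled to library size, so no genotype difference is read from them. Within each genotype Ergic1 had more reads in the library in which Dusp1 was higher. The part of shared reads in the Dusp1 values was not tested.

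Mt1 and Mt2 lie next to each other on chromosome 8, Mt2 from 94899292 to 94900196 and Mt1 from 94905710 to 94906955, with 5513 bases between them. Mt1 had 217 and 177 CPM in HFD-WT and 150 and 268 CPM in HFD-KO livers. Mt2 had 89.0 and 66.3 CPM in HFD-WT and 57.1 and 107 CPM in HFD-KO livers. For both genes HFD-KO replicate 2 was the highest and HFD-KO replicate 1 the lowest library, with both HFD-WT values between them. HFD-KO replicate 2 also had the highest hepatocyte and erythroid marker sums, although Apoa1, Ttr and Cyp2e1 were highest in HFD-KO replicate 1. The genes of the pair followed each other over libraries without separating the genotypes: the ratio of Mt1 to Mt2 in TPM stayed between 1.152 and 1.259, and the log2 fold changes were 0.08 for both (standard errors 0.24 and 0.27). The Mt1 log2 fold change was 0.44 without HFD-KO replicate 1, -0.39 without HFD-KO replicate 2 and -0.05 without HFD-WT replicate 2, and that of Mt2 was 0.47, -0.45 and -0.11. The log2 difference between the HFD-KO replicates was 0.83 for Mt1 and 0.91 for Mt2, larger than for 97.3% and 97.9% of genes.

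Other metallothionein genes were near the limit of detection, as Mt3 had 1 read in 1 library and Mt4 had 0 in all 4. The acute phase genes moved with Mt1 and Mt2 over libraries. Of 20 genes for acute phase proteins and their regulators, 17 were highest in HFD-KO replicate 2 and 17 were lowest in HFD-KO replicate 1. The shares of all genes that were highest or lowest in these libraries were not counted. Their summed level was 23670 and 22580 CPM in HFD-WT and 20210 and 32930 CPM in HFD-KO livers, the same order of libraries as Mt1 and Mt2. Saa1, which encodes serum amyloid A and was chosen after its values were seen, had 179 and 156 CPM in HFD-WT and 115 and 306 CPM in HFD-KO livers. The part of an acute phase difference between the HFD-KO libraries in the metallothionein values was not tested.

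**Figure D3:**
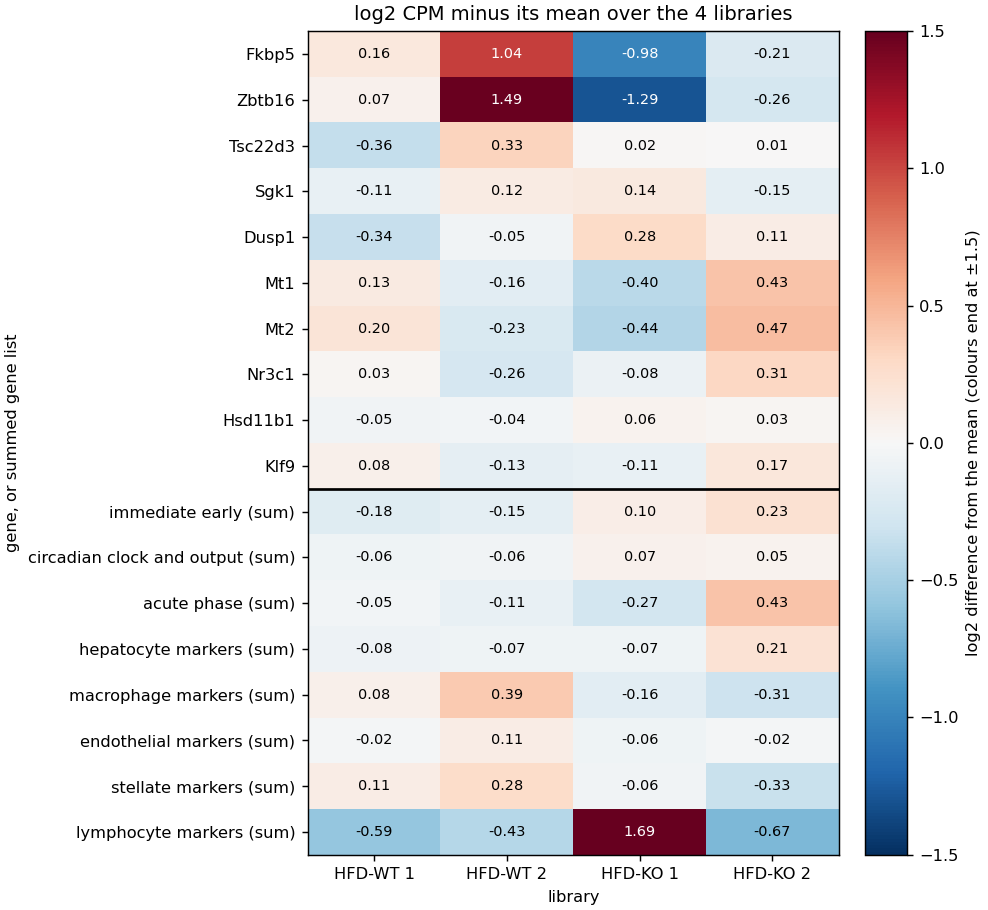
Map of log2 CPM minus its mean over the 4 libraries, for the 10 genes (above the line) and for the summed CPM of 8 gene lists (below it), red for higher and blue for lower. Fkbp5 and Zbtb16 ran from HFD-WT replicate 2 down to HFD-KO replicate 1, while Mt1, Mt2 and the acute phase sum were highest in HFD-KO replicate 2.

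The sequences upstream of the pair are shown because Mt1 and Mt2 followed each other over libraries. They are the 250 bases before the RefSeq transcription start on GRCm38.p6, plus strand, at chr8:94172368-94172617 for Mt2 and chr8:94178839-94179088 for Mt1, with matches to the metal response element (MRE) core in capitals. The core was searched as TGCACNC or TGCGCNC on both strands.
Mt2: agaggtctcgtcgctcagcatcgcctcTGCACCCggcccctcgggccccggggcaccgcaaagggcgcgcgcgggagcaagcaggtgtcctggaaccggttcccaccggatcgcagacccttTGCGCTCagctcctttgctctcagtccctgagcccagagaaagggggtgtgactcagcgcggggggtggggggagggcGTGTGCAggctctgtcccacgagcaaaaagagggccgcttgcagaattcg
Mt1: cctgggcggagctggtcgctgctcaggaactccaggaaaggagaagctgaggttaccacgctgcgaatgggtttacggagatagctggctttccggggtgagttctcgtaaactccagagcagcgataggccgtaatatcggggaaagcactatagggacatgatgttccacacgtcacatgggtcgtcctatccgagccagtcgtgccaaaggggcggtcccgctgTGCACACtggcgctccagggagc
Mt2 held 3 matches, from 223 to 217, 128 to 122 and 50 to 44 bases before its start, and Mt1 held 1 match, from 23 to 17 bases before its start. At least 1 match was found in 21.4% and at least 3 in 1.26% of 32851 promoter windows of this length. Bases after the RefSeq start were not searched, and a match describes letters and not binding.

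Windows for 8 of the 10 genes were in the RefSeq table, and none was listed for Nr3c1 or Zbtb16. The glucocorticoid response element (GRE) was searched as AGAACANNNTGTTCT, and its left part AGAACA, which every GRE match contains, was searched separately on both strands. A full GRE occurred in 3 of the 32851 windows, which is 0.00913%, and AGAACA in 16.1%. A window of Sgk1 was among the 3. The Sgk1 window is shown because it alone held a full GRE among these genes, and it lies at chr10:21993640-21993889 on GRCm38.p6, plus strand, with the GRE in capitals.
Sgk1: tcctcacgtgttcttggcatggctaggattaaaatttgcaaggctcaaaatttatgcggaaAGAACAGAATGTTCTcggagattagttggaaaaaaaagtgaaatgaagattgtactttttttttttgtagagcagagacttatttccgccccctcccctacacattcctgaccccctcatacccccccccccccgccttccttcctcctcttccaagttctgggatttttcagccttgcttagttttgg
The GRE lies from 189 to 175 bases before that start, and 951 bases before the most downstream of the 6 Sgk1 starts. Sgk1 had nearly equal means in both genotypes, as given above. The windows of Fkbp5, Dusp1 and Klf9 held neither the full GRE nor AGAACA, which says only that these letters are not in these windows.

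The genotype differences of the 10 genes centred near 0. Of the 10 genes, 4 had a negative and 6 a positive log2 fold change, with a median of 0.07, against a median of 0.01 over the 12967 genes tested. At an adjusted p under 0.05 by edgeR's quasi-likelihood test, 0 of the 10 genes were called, where 0.0771% of all genes tested were. DESeq2's Wald test, which called 120 of 12967 genes, also called 0 of the 10. The median log2 fold change of the 10 genes was 0.14 without HFD-KO replicate 1 and -0.048 without HFD-KO replicate 2. At an unadjusted p under 0.05, 2 genes, Fkbp5 and Zbtb16, were lower, where 4.73% of all genes were, and 1 gene, Dusp1, was higher, where 4.25% were. Groups that did not overlap were found for 2 lower and 2 higher genes, against 20.3% and 20.5% of all genes. Because Fkbp5 in this comparison led to the choice of the genes, nothing is read from these counts.

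**Figure D4:**
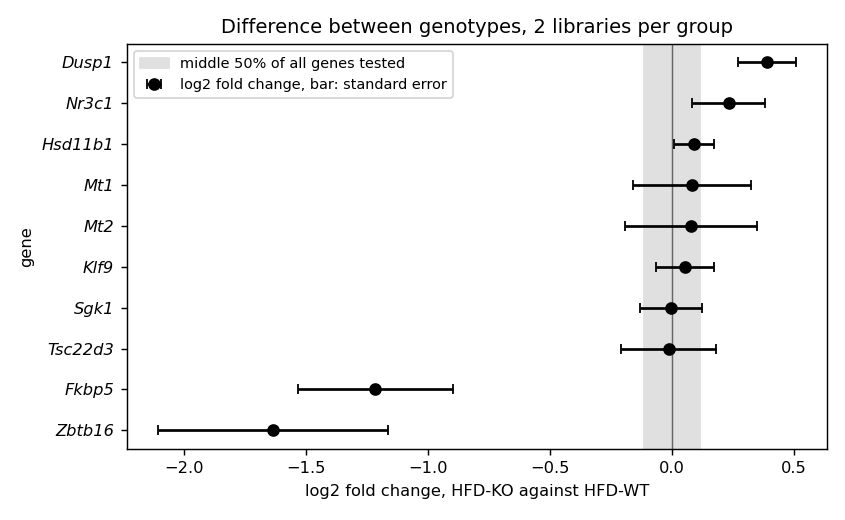
Log2 fold change (HFD-KO minus HFD-WT) for each gene, with bars for the standard error and a grey band for the middle 50% of all genes tested. Fkbp5 at -1.22 and Zbtb16 at -1.63 lay far to the left of the band, and Dusp1 at 0.39 to its right.

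Genes with the pattern nearest to that of Fkbp5 were named by the Euclidean distance of log2 CPM, each gene centred on its mean over the 4 libraries, among 11764 genes with a mean of at least 1 CPM. They included Cbr3 at a distance of 0.35, Adarb1 at 0.40, Lpin1 at 0.43 and Abcc4 at 0.46. Zbtb16 was at position 7 with 0.54, and the next gene of the group, Tsc22d3, at position 2425. Lpin1, which encodes the phosphatidic acid phosphatase lipin 1 and is induced by glucocorticoids in the liver, had 162 and 334 CPM in HFD-WT and 98.5 and 112 CPM in HFD-KO livers. With 4 libraries many genes share such an order, and the distance is a description.

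Most macrophage markers were lower in HFD-KO, as were Fkbp5 and Zbtb16. Of 13 markers, 12 had a lower mean in HFD-KO, while 6282 of the 12967 genes tested had a negative log2 fold change. At an unadjusted p under 0.05 by edgeR, 9 were lower and 0 higher, beside 4.73% and 4.25% of all genes. At an adjusted p under 0.05 by edgeR 0 were called. Of the 13 markers, 11 were highest in HFD-WT replicate 2, a share not counted over all genes. The markers summed to 554 and 691 CPM in HFD-WT and 470 and 425 CPM in HFD-KO livers. None of the 13 was at 0. In the summed CPM the order of the HFD-KO libraries was opposite to that of Fkbp5, while single markers had either order. Vsig4, Cd5l and C1qc had the order of Fkbp5 over the 4 libraries, and Mpeg1 and Csf1r that of the sum. Stellate cell markers summed to 365 and 411 CPM in HFD-WT and 325 and 268 CPM in HFD-KO livers, and endothelial markers to 325, 356, 317 and 325 CPM. The part of these cells in the Fkbp5 and Zbtb16 values was not tested.

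Other glucocorticoid targets gave no shared direction. A list of 24 further targets, from Per1, Pck1 and Tat to Igfbp1, had a median log2 fold change of 0.02, with 11 genes negative and 13 positive. By edgeR 0 were called at an adjusted p under 0.05, and 1 by DESeq2's Wald test, which called 120 of 12967 genes. At an unadjusted p under 0.05 by edgeR, 2 were lower and 3 higher, beside 4.73% and 4.25% of all genes. Lpin1 had the lowest log2 fold change, -1.24 ± 0.29 (edgeR adjusted p = 0.268). Igfbp1, which encodes an insulin-like growth factor binding protein, had 48.3 and 68.9 CPM in HFD-WT and 93.6 and 293 CPM in HFD-KO livers (log2 fold change 1.72 ± 0.46, adjusted p = 0.358). Its log2 fold change was 0.68 without HFD-KO replicate 2. Gadd45b, a stress-induced gene, had 3.97 and 3.75 CPM in HFD-WT and 10.2 and 7.08 CPM in HFD-KO livers (log2 fold change 1.17 ± 0.21, adjusted p = 0.172). Sds, the serine dehydratase gene of amino acid breakdown, had 172 and 187 CPM in HFD-WT and 99.4 and 145 CPM in HFD-KO livers (log2 fold change -0.55 ± 0.16, adjusted p = 0.40). The gluconeogenic gene Pck1 overlapped, with 2367 and 2538 CPM in HFD-WT and 2720 and 2232 CPM in HFD-KO livers. At an unadjusted p under 0.05 the list had 10 genes without HFD-KO replicate 1 and 12 without HFD-KO replicate 2, where 16.4% and 11.4% of all genes passed.

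The receptor's partners centred near 0. Of 20 tested genes for chaperones, cofactors and corticosteroid metabolism, 0 were called at an adjusted p under 0.05 by edgeR. DESeq2's Wald test called 1, where it called 120 of 12967 genes. The median log2 fold change was 0.05. At an unadjusted p under 0.05, 1 was lower and 1 was higher, beside 4.73% and 4.25% of all genes, and the total was 7 without HFD-KO replicate 1, where 16.4% of all genes passed. The chaperone gene Hsp90ab1 had 912 and 936 CPM in HFD-WT and 880 and 950 CPM in HFD-KO livers. Fkbp4, the relative of Fkbp5 that promotes nuclear transfer of the receptor, had 148 and 154 CPM in HFD-WT and 158 and 175 CPM in HFD-KO livers, with no decrease like that of Fkbp5. H6pd, which supplies the cofactor of the Hsd11b1 enzyme, had 468 and 483 CPM in HFD-WT and 459 and 547 CPM in HFD-KO livers. Cyp3a11, a cytochrome P450 that hydroxylates steroids, had 1546 and 1263 CPM in HFD-WT and 691 and 831 CPM in HFD-KO livers (log2 fold change -0.88 ± 0.14, edgeR adjusted p = 0.115). Nr3c2, the mineralocorticoid receptor gene, had 12.4 CPM in each HFD-WT library and 17.9 and 14.9 CPM in HFD-KO livers (log2 fold change 0.40 ± 0.12, adjusted p = 0.383). Hsd11b2, which inactivates corticosterone in other tissues, had 0 reads in all 4 libraries and so was below the limit of 3 counts.

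Genes of zinc handling gave no shared direction either. Among 22 tested genes 0 were called at an adjusted p under 0.05 by edgeR and 1 by DESeq2's Wald test, which called 120 of 12967 genes. The median log2 fold change was 0.03, and 2 were lower and 2 higher at an unadjusted p under 0.05 by edgeR, beside 4.73% and 4.25% of all genes. That total was 8 without HFD-KO replicate 1 and 2 without HFD-WT replicate 2, where 16.4% and 3.48% of all genes passed. Mtf1, the zinc-sensing factor that drives metallothionein genes, had 15.9 and 16.8 CPM in HFD-WT and 17.1 and 17.9 CPM in HFD-KO livers (log2 fold change 0.10 ± 0.092, edgeR adjusted p = 0.793). The zinc exporter gene Slc30a1, another Mtf1 target, had 34.3 and 25.7 CPM in HFD-WT and 31.3 and 42.0 CPM in HFD-KO livers. HFD-KO replicate 2 was its highest library, as for Mt1 and Mt2, but its lowest was HFD-WT replicate 2. Among genes with an unadjusted p under 0.05 and groups that do not overlap, the largest differences were those of Slc30a10, a manganese exporter gene (log2 fold change 0.85 ± 0.16, adjusted p = 0.210), and of the zinc importer gene Slc39a4 (log2 fold change -0.56 ± 0.17, adjusted p = 0.416). Slc39a8, another metal importer gene, and Hmox1, the heme oxygenase gene, had log2 fold changes of 0.27 and -0.24 (adjusted p = 0.421 and 0.477).

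Immediate early genes, with which Dusp1 is often induced, had mostly positive log2 fold changes. Of 18 genes tested, 15 had a positive log2 fold change, beside 6685 of the 12967 genes tested. The median was 0.34, beside 0.01 over all genes tested. The list was chosen with earlier results of these data known. Egr1, a zinc finger factor, was called at an adjusted p under 0.05, with 16.9 and 18.2 CPM in HFD-WT and 29.9 and 33.3 CPM in HFD-KO livers (log2 fold change 0.85 ± 0.094, edgeR adjusted p = 0.046). The call was lost with the plain library size (edgeR adjusted p = 0.053) and with either HFD-WT library left out. The Egr1 log2 fold change ranged from 0.77 to 0.92 when each library was left out, and was positive under every alternative. DESeq2's Wald test called 3 of the 18 genes at an adjusted p under 0.05, where it called 120 of 12967 genes. At an unadjusted p under 0.05 by edgeR, 8 of the 18 genes were higher and 1 was lower, beside 4.25% and 4.73% of all genes. That total was 14 without HFD-KO replicate 1 and 5 without HFD-WT replicate 2, where 16.4% and 3.48% of all genes passed. Fos had 4.87 and 5.53 CPM in HFD-WT and 8.24 and 8.42 CPM in HFD-KO livers (log2 fold change 0.68 ± 0.15, adjusted p = 0.233). Nr4a1 and Gadd45a had log2 fold changes of 0.68 and 0.62 (adjusted p = 0.363 and 0.451). The part of a shared early response in the Dusp1 values was not tested.

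Glucocorticoids and the clock are linked, and the hour at which livers were taken is not given in the sources used here. Among 19 clock and clock output genes 0 were called at an adjusted p under 0.05 by edgeR. DESeq2's Wald test called 1, where it called 120 of 12967 genes. By edgeR, 2 were lower and 4 higher at an unadjusted p under 0.05, beside 4.73% and 4.25% of all genes. The total was 3 without HFD-WT replicate 2, where 3.48% of all genes passed. Nr1d1, the repressor REV-ERB alpha, had 82.8 and 73.4 CPM in HFD-WT and 117 and 100 CPM in HFD-KO livers (log2 fold change 0.47 ± 0.11, edgeR adjusted p = 0.257). Per1, which is both a clock gene and a glucocorticoid target, had 48.8 and 56.1 CPM in HFD-WT and 60.7 and 58.6 CPM in HFD-KO livers (log2 fold change 0.19 ± 0.094, adjusted p = 0.630). Bhlhe41 had a log2 fold change of 0.64, Cry1 of -0.45 and Ciart of -0.44 (adjusted p = 0.536, 0.467 and 0.358). A part of collection time in the Fkbp5, Klf9 and Dusp1 values was not tested.

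Of the 20 acute phase genes 0 were called at an adjusted p under 0.05 by edgeR or by DESeq2's Wald test, which called 120 of 12967 genes. At an unadjusted p under 0.05 by edgeR only Steap4, a metalloreductase gene, was lower (log2 fold change -0.36 ± 0.13, edgeR adjusted p = 0.496) and 0 were higher, beside 4.73% and 4.25% of all genes. The median log2 fold change was 0.17. Without HFD-KO replicate 1, 17 of the 20 were higher at an unadjusted p under 0.05, beside 8.25% of all genes. Without HFD-KO replicate 2, 12 were lower and 0 higher, beside 5.63% and 5.77% of all genes, so the direction rested on which HFD-KO library was kept, as for Mt1 and Mt2.

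**Figure D5:**
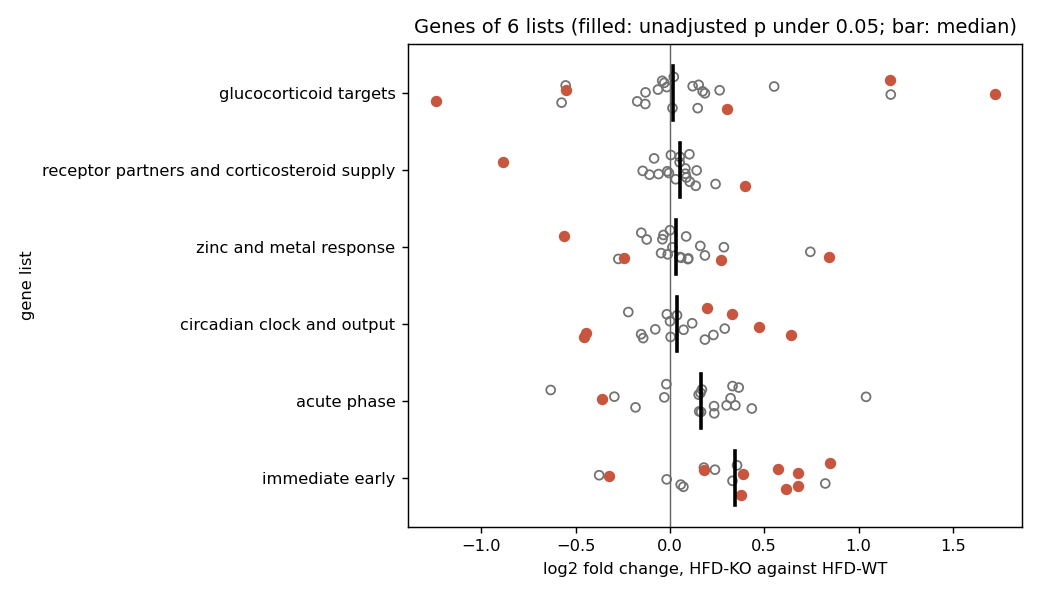
Log2 fold change (HFD-KO minus HFD-WT) for each tested gene of 6 lists, filled where the unadjusted p was under 0.05, with a bar at the list's median. The median was 0.34 for immediate early genes, 0.17 for acute phase genes and between 0.02 and 0.05 for the other 4 lists.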

How the data were processed

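Liver polyA RNA of 2 HFD-WT and 2 HFD-KO male mouse libraries was compared. The authors prepared libraries with a directional MGI Tech kit, sequenced paired ends, trimmed them with an MGI Tech tool, aligned to mm10, and obtained gene values from Partek Genomics Suite (GENCODE genes). Versions, strand use and the handling of reads with several alignments are not given in the sources used here. The methods name mm10 and the submitters' processing notes name GRCm39 and mm10. Gene positions printed are those of the table: of 25600 genes also in GENCODE M21 (GRCm38), 551 had the same start and end, and 0 of the 10 members did, so no table position was combined with GRCm38.

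The deposited counts, whole and not normalized, were the values tested. The authors' TPM was used for levels between genes, the authors' RPKM was not used in any value given, and the deposited CPM is a score on an adjusted library size and was not used. With R 4.3.3 and edgeR 4.0.16, filterByExpr left 12967 genes, libraries were scaled by TMM, and genotypes were compared by the two-sided quasi-likelihood test, p-values being adjusted over all genes tested (Benjamini-Hochberg). Standard errors are the log2 fold change divided by the square root of the test's F. With 2 libraries against 2 an exact permutation test cannot give a p below 0.333. The procedure was also run on counts simulated at the fitted dispersions, and the outcome is not given here. Such simulated counts hold no shift shared by genes within a library. DESeq2 1.42.0 was an alternative, and plots were drawn with matplotlib 3.10.9.

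The members and lists were chosen with earlier results of these data known. The genes named were the members, Adarb1, list genes with an adjusted p under 0.05, up to 4 genes per list with the largest change among those with an unadjusted p under 0.05, groups that do not overlap and a mean CPM of 1 or more, and the 5 genes nearest to Fkbp5, of which 1 is not reported here. Saa1, Ighm, Nkg7, Klrb1c, Slc30a1, Pck1, Per1, Mtf1, Fkbp4, Hsp90ab1 and H6pd were added after their values were seen. Per1, Lcn2 and Orm1 stand on 2 lists each.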

Additional observations from a re-analysis of the deposited data

How the results depend on the processing

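Of 90 log2 fold changes of the 10 genes under the alternatives, 80 kept the sign. The other 10 belong to Tsc22d3, Sgk1, Mt1, Mt2 and Klf9, 9 of them with a library left out and 1, Tsc22d3, with the replicate number as a block. Fkbp5 stayed between -1.65 and -0.70 and Zbtb16 between -2.23 and -0.75. The median of the 10 genes was 0.07 and ranged from -0.048 to 0.14 when each library was left out. The number of the 10 genes at an adjusted p under 0.05 was 0. With no filter on low counts it was 2, Fkbp5 and Zbtb16, where 162 of 17301 genes were called. With the replicate block it was the same 2, where 20 of 12967 genes were called. Because Fkbp5 in this comparison led to the choice of the genes, nothing is read from these counts. The number of the 10 genes with a negative log2 fold change was 4, and 4 to 6 when a library was left out.

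Over all genes, 7 were higher and 3 lower at an adjusted p under 0.05. The counts were 81 and 81 with no filter, 60 and 60 with DESeq2's Wald test, and 12 and 8 with the replicate block (a fit that pairs libraries by number), and 4 genes were higher with the plain library size. Leaving out each library gave 0 to 376 higher and 0 to 329 lower genes, the 0 without HFD-WT replicate 2, where 255 genes were higher and 207 lower at an unadjusted p under 0.05. At that threshold the plain library size gave 346 higher and 894 lower genes against 551 and 613. List totals at an unadjusted p under 0.05 were, with no filter, 8 for glucocorticoid targets and 5 for acute phase genes, where 8.59% of all genes passed. With DESeq2's Wald test the total was 2 for zinc genes, where 5.17% of all genes passed. With the replicate block it was 2 for acute phase genes, where 7.54% of all genes passed. Leaving out each library moved them from 5 to 12 for glucocorticoid targets, 2 to 7 for receptor partners, 2 to 8 for zinc genes, 3 to 8 for clock genes, 0 to 17 for acute phase genes and 5 to 14 for immediate early genes. The causes were not tested. A lone library left in a group was assumed to vary like the other group's. Deviations of same-numbered libraries from their group means had a correlation of -0.0764 across genes, so the numbers were not taken to pair libraries, and the replicate block is an alternative only.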
